A study of Homo sapiens with 4 samples.

Results

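The lysosome and autophagy genes described here are 50 listed genes, all 50 of which were found by symbol among the 46427 rows of the deposited gene table. They fall into 9 roles: the V-ATPase proton pump (15 genes in 3 of the roles), cathepsins and other peptidases (7), membrane and transport proteins (7), glycan and lipid hydrolases (8), the MiT/TFE transcription factors (3), the ATG8 family (4) and the machinery of autophagy initiation and conjugation (6). Their mRNA was measured in H1299 (NCI-H1299), a line from a human non-small cell lung carcinoma, and in a DDX21 KO derivative, in which the nucleolar RNA helicase DDX21 was targeted. The 4 groups were DDX21 KO cells transfected with a mimic of the microRNA miR-34a, non-treated DDX21 KO cells, H1299 cells transfected with the mimic, and non-treated H1299 cells. Transfection used 25 nmol/l RNA and harvest followed after 48 h. Each group had 1 library of total RNA depleted of ribosomal RNA, so every ratio compares libraries and no p-value was computed. The labels do not say that non-treated cells received a control RNA, so a ratio of miR-34a to non-treated cells includes the transfection, and they do not say whether the knockout line is 1 clone or which part of DDX21 was edited.

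Lysosomes are acidic organelles that degrade proteins, glycans and lipids. The V-ATPase acidifies them: its membrane-bound V0 sector conducts protons and its cytosolic V1 sector hydrolyses ATP. In autophagy, a membrane grows around cytoplasm, is decorated with lipid-bound ATG8 proteins and fuses with the lysosome. Many of these genes carry a CACGTG-centred element, called CLEAR, in their promoters, which TFEB, TFE3 and MITF bind. miR-34a pairs through its seed with sites in the 3′ UTR of mRNAs and lowers them.

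The seed matches and promoter elements of these genes are shown first, because ratios are later given for members with and without them. The mature miR-34a-5p (RefSeq, GRCh38.p14, chr1:9151735-9151756, minus strand) has its seed, bases 2 to 8, in capitals.
miR-34a-5p: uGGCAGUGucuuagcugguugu
Of the 50 members, 12 carried a match to the seed (CACTGCC or ACTGCCA) in the longest 3′ UTR of GENCODE 29. Sites are given in windows of 30 bases (GRCh38, 5′ to 3′ on the gene's strand), with the match in capitals. They are those of NEU1 and of members with enough counts and a log2 ratio below 0 with the mimic in H1299. The sites of CTSB and ATP6V1C1, also discussed below, are not shown.
ATG9A (chr2:219220144-219220173, minus strand): cccagccccagtACTGCCAcctttacacct
TPP1 (chr11:6613275-6613304, minus strand): acccctgatacaACTGCCAggttaatttcc
ULK1 (chr12:131921680-131921709, plus strand): gggcctgagacCACTGCCgactcaaagcca
ATG5 (chr6:106186326-106186355, minus strand): ctgctttcctcCACTGCCAtcattaaacct
NEU1 (chr6:31859689-31859718, minus strand): gctgtgcCACTGCCAcaggggtattctgcc
ATG5 and NEU1 held the full 8-mer CACTGCCA and the other sites shown were 7-mers. The remaining members with a site were ATP6V0B, ATP6V1C1, ATP6V1E1, CTSB, TFEB, MITF and GABARAPL2, of which ATP6V1C1 also held the 8-mer.

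Promoter windows of 300 bases were found in the RefSeq table (GRCh38.p14) for 40 of the 50 members. TCACGTG, a CLEAR-like element read on either strand, was in 9 of the 40 (22.5%), against 5.88% of 15515 protein-coding genes. The shorter E-box CACGTG, which every TCACGTG contains, was in 10 of 40 (25.0%) against 11%. The full palindrome of 10 bases, which holds both shorter motifs and is capitalised in the first 3 windows below, was in 3 of 40 (7.50%) against 0.645%. Windows of 30 bases around the element are shown for the 3 promoters with the full palindrome and for 1 pump gene and 1 protease gene with the shorter form, again with the match in capitals.
ATP6V1G1 (chr9:114587699-114587728, plus strand): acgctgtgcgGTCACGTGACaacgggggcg
GAA (chr17:80101493-80101522, plus strand): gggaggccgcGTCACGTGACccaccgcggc
MCOLN1 (chr19:7522598-7522627, plus strand): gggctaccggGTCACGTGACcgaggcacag
ATP6V0D1 (chr16:67481199-67481228, minus strand): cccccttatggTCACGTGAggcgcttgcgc
CTSD (chr11:1763957-1763986, minus strand): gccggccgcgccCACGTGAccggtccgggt
In CTSD the element lay on the opposite strand, as CACGTGA. A match describes letters in a window and does not show binding.

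Library totals ran from 26868358 to 36263145 estimated counts, a floor of 3 counts corresponded to 0.0840 to 0.111 CPM (the usual library-scaled count, here with TMM factors), and 86.9% to 88.8% of counts fell on protein-coding genes. DDX21 itself stood at 182 CPM in miR-34a DDX21 KO, 206 CPM in non-treated DDX21 KO, 588 CPM in miR-34a H1299 and 722 CPM in non-treated H1299 cells, so its mRNA was reduced but present in the knockout line. Keratins KRT8 and KRT18 and vimentin were abundant in all 4 libraries, while the lung lineage genes SFTPB and SFTPC were at 0 counts and NKX2-1 at 0 in 3 libraries. EPCAM was low, at 0.0560 to 0.547 CPM over the 4 libraries. The 7 leukocyte markers summed to 2.58 to 4.5 CPM, nearly all of it ITGAM, the 4 fibroblast markers to 0.149 to 0.784 CPM, and the 3 erythroid markers were at 0 counts. The 4 endothelial markers summed to 6.10 CPM in miR-34a DDX21 KO, 3.97 in non-treated DDX21 KO, 1.70 in miR-34a H1299 and 0.812 in non-treated H1299 cells, mostly from KDR, with PECAM1 at 0 in every library. In bulk RNA, fewer cells with an mRNA and less of it per cell cannot be told apart.

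Per transcript length, the members spanned a wide range of levels, with acid hydrolase cofactors and pump subunits at the top and the transcription factors TFEB and MITF at the bottom. CD63 (gene 967, chr12:55725323-55729673), a tetraspanin of late endosomes, was the most abundant, at 252 FPKM in miR-34a DDX21 KO, 208 in non-treated DDX21 KO, 228 in miR-34a H1299 and 151 in non-treated H1299 cells. PSAP, the precursor of the saposins that help hydrolases degrade sphingolipids, ranked next by the median over libraries, at 133 FPKM in miR-34a DDX21 KO, 104 in non-treated DDX21 KO, 139 in miR-34a H1299 and 89.5 in non-treated H1299 cells. ATP6V1D, ATP6V1E1 and NPC2, the intralysosomal cholesterol carrier, had medians of 92.8, 86.1 and 86.3 FPKM, differences smaller than their spread over the libraries. At the other end, ULK1, the kinase that starts autophagy, lay between 0.615 and 0.975 FPKM, MITF between 0.156 and 0.284 and TFEB between 0.207 and 0.405. TFE3 was the most abundant MiT/TFE factor, at 11.5 FPKM in miR-34a DDX21 KO, 10.6 in non-treated DDX21 KO, 10.1 in miR-34a H1299 and 8.64 in non-treated H1299 cells.

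Summed over all 50 members, the level was 1758 FPKM in miR-34a DDX21 KO, 1463 in non-treated DDX21 KO, 1729 in miR-34a H1299 and 1212 in non-treated H1299 cells. The members took 0.401% of all counts in miR-34a DDX21 KO, 0.339% in non-treated DDX21 KO, 0.391% in miR-34a H1299 and 0.278% in non-treated H1299 cells. Both transfected libraries were therefore above their non-treated counterparts, and non-treated H1299 was the lowest. By gene, non-treated H1299 held the lowest scaled count for 28 of 49 members (57.1%), against 27.8% of all 13964 genes, and the highest for 1 (2.04%), against 28.9%. Each of the transfected libraries held the highest value of 20 members (40.8%), against 21.7% of all genes for miR-34a DDX21 KO and 27.9% for miR-34a H1299.

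**Figure D1:**
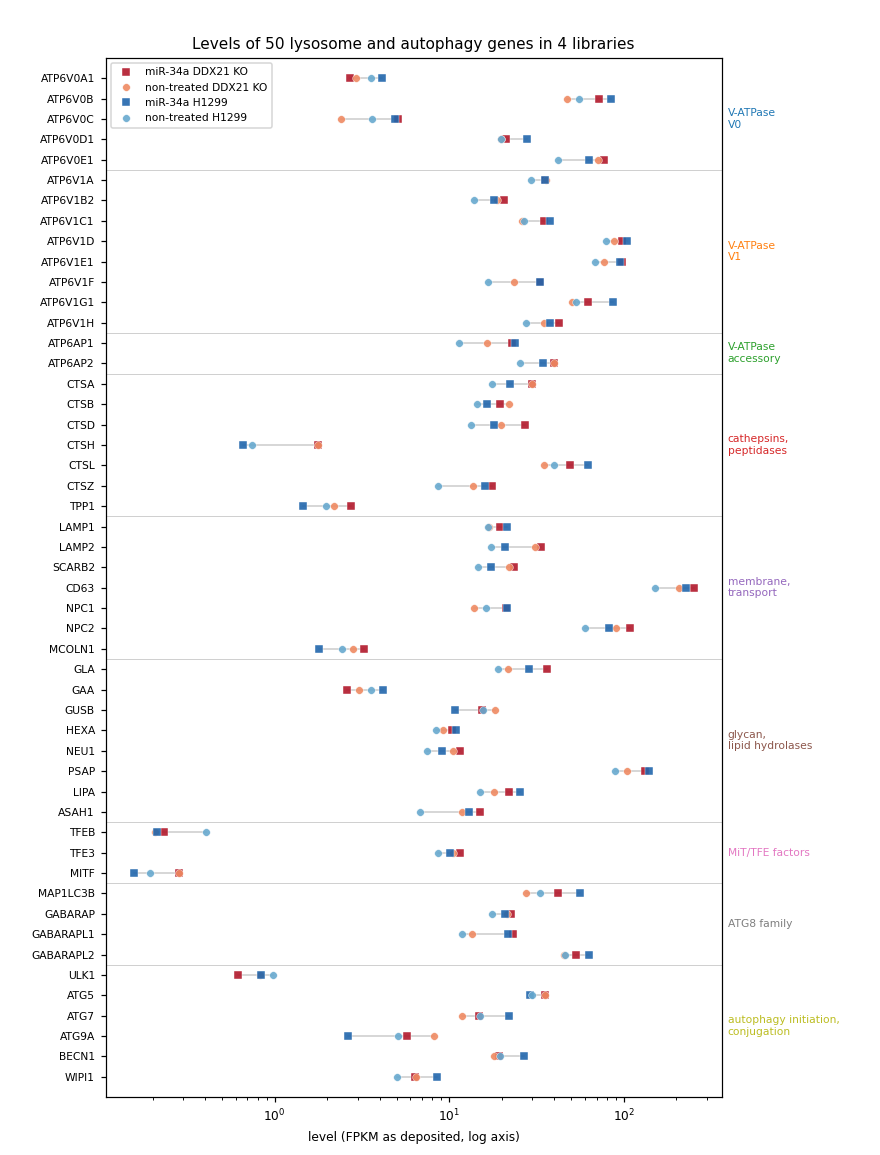
Level of each of the 50 members (rows, by role) in FPKM on a log axis, with 1 point for each of the 4 libraries and a line over their range. CD63, at 151 to 252 FPKM, and PSAP lie at the right, and TFEB and MITF, below 0.41 FPKM, at the left.

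**Figure D2:**
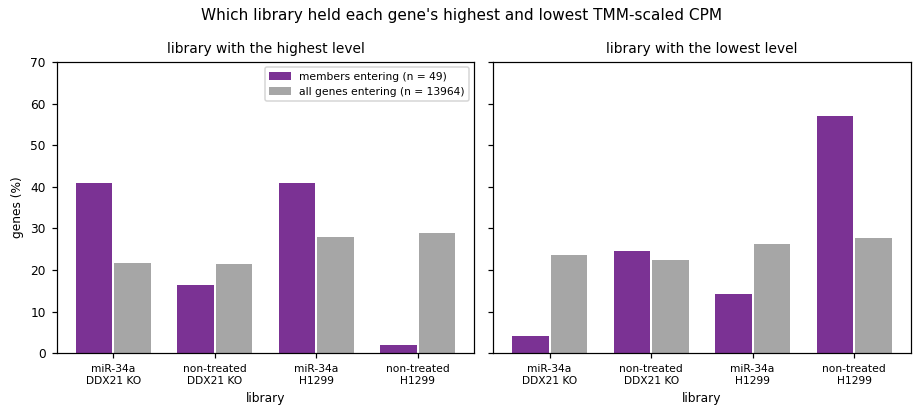
Share of genes (%) whose highest (left) or lowest (right) TMM-scaled CPM was in each library, for the 49 members and for all 13964 genes with at least 50 counts in a library. Non-treated H1299 held the lowest value of 57.1% of members against 27.8% of all genes.

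The first comparison asked how these genes stood after the miR-34a mimic in H1299 cells. Most were moderately higher: 41 of the 48 members with at least 50 counts in either library had a ratio above 1 (85.4%, against 50.2% of all 13597 genes), and the median log2 ratio was 0.45, against 0.003 for all genes. By at least 1.5-fold with a 95% counting interval that excluded no change, 15 members were higher and 1 was lower, against a background of 10.6% of all genes higher and 12.9% lower. A single member, ATP6AP1, was higher by at least 2-fold and 0 were lower, where 3.62% and 4.27% of all genes were. Brackets give the 95% range that counting error alone leaves to a log2 ratio.

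Of the 15 V-ATPase genes, 5 were higher by at least 1.5-fold, and the median log2 ratio was 0.48. The intervals of all 15 lay above 0, where those of 36.7% of all genes did. ATP6AP1 (gene 537, chrX:154428669-154436516), an accessory subunit needed for pump assembly, stood at 56.1 CPM in miR-34a and 26.7 CPM in non-treated H1299 cells, a log2 ratio of 1.07 (0.96 to 1.18). ATP6V1F, a subunit of the V1 rotor stalk, was at 25.9 CPM in miR-34a and 12.9 CPM in non-treated H1299 cells, or 1.00 (0.84 to 1.17). ATP6V1G1, of the V1 stator, was at 156 CPM in miR-34a and 94.7 CPM in non-treated H1299 cells, a log2 ratio of 0.72 (0.65 to 0.78). The smallest ratios of the pump were those of the V0 subunit ATP6V0A1, at 0.19 (0.03 to 0.35), and of the catalytic V1 subunit ATP6V1A, at 0.27 (0.22 to 0.33). Of the 5 pump genes above 1.5-fold, 2 were in V0 (ATP6V0B, ATP6V0E1), 2 in V1 and 1 was an accessory subunit. The 2 in V0, at 0.602 and 0.594, lay just above the limit of 0.585.

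Hydrolases were mostly higher as well. Among glycan and lipid hydrolases, 4 of 8 were higher by at least 1.5-fold, with a median log2 ratio of 0.49. ASAH1, the acid ceramidase, stood at 41.3 CPM in miR-34a and 21.9 CPM in non-treated H1299 cells, a log2 ratio of 0.91 (0.79 to 1.04). LIPA, the lysosomal acid lipase that frees cholesterol from its esters, was at 74.0 CPM in miR-34a and 43.5 CPM in non-treated H1299 cells, or 0.77 (0.67 to 0.86). PSAP (0.65) and GLA (0.61), the α-galactosidase, completed the 4. GLA shares its span with the read-through locus RPL36A-HNRNPH2, so its counts are uncertain. Of the peptidases, CTSZ, a carboxypeptidase, was at 27.6 CPM in miR-34a and 14.7 CPM in non-treated H1299 cells, a log2 ratio of 0.90 (0.75 to 1.06), and CTSL, an endopeptidase, had a log2 ratio of 0.64 (0.57 to 0.71). CTSD, the aspartic protease, and CTSA, which protects neuraminidase, stayed below 1.5-fold at 0.44 and 0.48. CTSB, a cysteine protease with a seed site, was at 0.19 (0.10 to 0.27).

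Membrane proteins had smaller ratios, and a few members were lower. Of 7 membrane and transport proteins only CD63 passed 1.5-fold, at a log2 ratio of 0.594 (0.55 to 0.64), just above the limit of 0.585. The abundant membrane glycoproteins LAMP1 and LAMP2 were at 0.36 and 0.30, and SCARB2, the receptor that carries glucocerebrosidase, at 0.27. The intervals of 4 members lay below 0, where those of 35.6% of all genes did. ATG9A, the scramblase whose vesicles seed the autophagosome, was the only one lower by 1.5-fold, with 11.4 CPM in miR-34a and 21.7 CPM in non-treated H1299 cells and a log2 ratio of -0.93 (-1.12 to -0.75). For TPP1, a tripeptidyl peptidase, 191 counts in miR-34a and 281 in non-treated H1299 cells gave -0.43 (-0.71 to -0.17). For the calcium channel MCOLN1, 141 counts in miR-34a and 207 in non-treated H1299 cells gave -0.43 (-0.75 to -0.12). GUSB, β-glucuronidase, was at -0.52 (-0.64 to -0.39). The table lists 14 GUSB pseudogenes, which sum to 2145 counts in miR-34a and 3067 in non-treated H1299 cells against 854 in miR-34a and 1327 in non-treated H1299 cells for GUSB, so its ratio is uncertain.

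The ATG8 genes had ratios above 1 in both lines, while the rest of the autophagy machinery was mixed. Of the 4 ATG8 genes, 2 were higher by at least 1.5-fold in H1299 (background 10.6%) and the same 2 in DDX21 KO cells (background 5.96%). The call of MAP1LC3B in DDX21 KO cells was marginal, at 0.586 against a limit of 0.585. GABARAPL1 (gene 23710, chr12:10212877-10223128) stood at 48.5 CPM in miR-34a DDX21 KO, 28.3 in non-treated DDX21 KO, 46.3 in miR-34a H1299 and 24.6 in non-treated H1299 cells. Both transfected libraries lay above both non-treated ones, with log2 ratios of 0.78 (0.65 to 0.91) in DDX21 KO and 0.91 (0.79 to 1.03) in H1299 cells. MAP1LC3B (gene 81631, chr16:87392336-87404774), the ATG8 protein used to mark autophagosomes, was at 101 CPM in miR-34a DDX21 KO, 67.4 in non-treated DDX21 KO, 138 in miR-34a H1299 and 80.9 in non-treated H1299 cells, giving log2 ratios of 0.59 (0.50 to 0.67) in DDX21 KO and 0.77 (0.71 to 0.84) in H1299 cells. GABARAP and GABARAPL2 stayed below 1.5-fold, at 0.06 and 0.21 in DDX21 KO and 0.25 and 0.45 in H1299 cells. Outside this family, the phosphoinositide-binding WIPI1 was at 0.73 (0.55 to 0.92) and the E1-like enzyme ATG7 at 0.52 in H1299, whereas ATG5, which is conjugated to ATG12, was at -0.03 (-0.10 to 0.04). WIPI1 shares its span with PRKAR1A and ARSG and ATG7 with VGLL4, and the files do not say whether counting used strand.

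**Figure D3:**
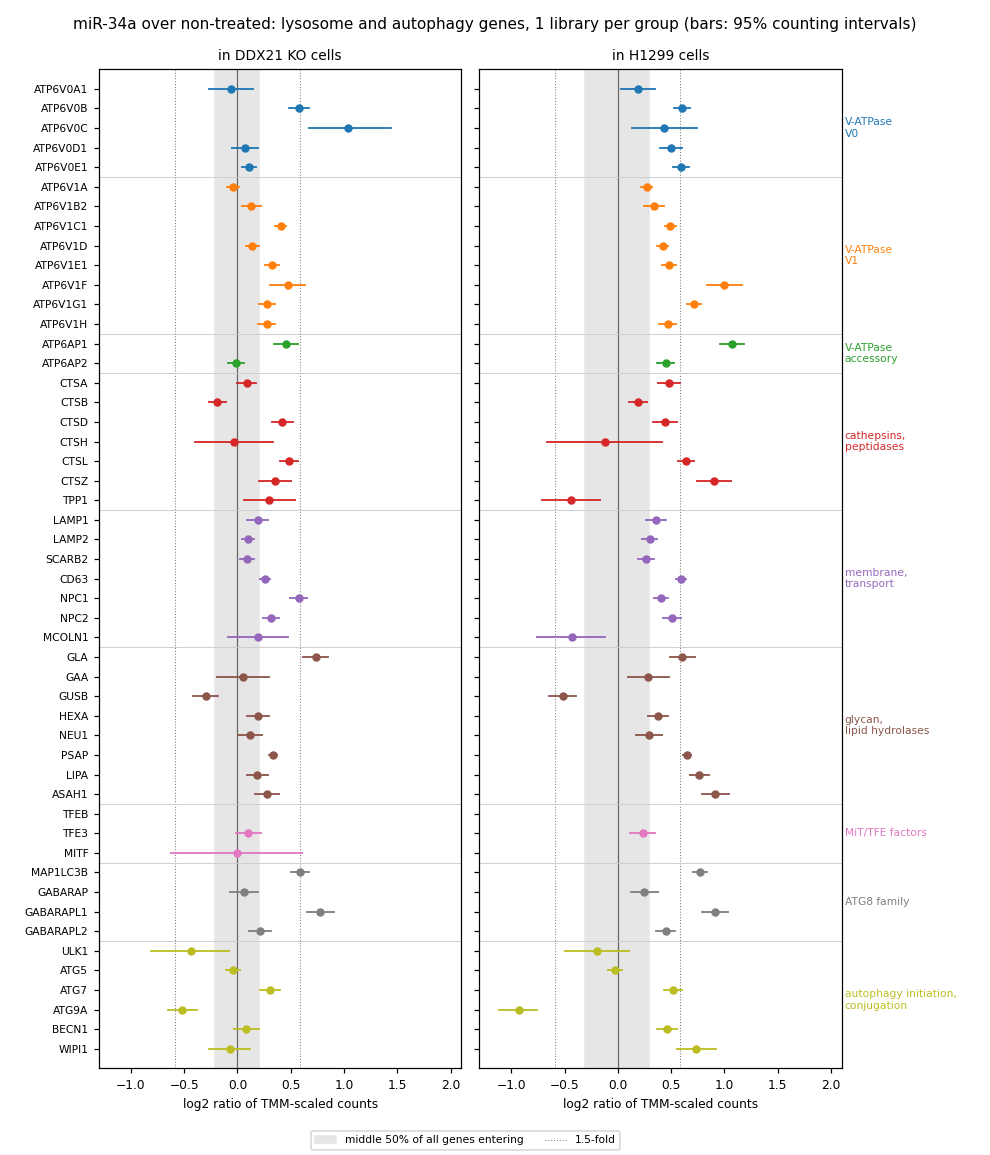
Log2 ratio of miR-34a over non-treated cells for each member (rows, by role) in DDX21 KO (left) and H1299 (right), with 95% counting intervals as bars, 1.5-fold as dotted lines and the middle 50% of all genes in grey. In H1299 all 15 pump genes lie right of 0 with a median of 0.48, and in DDX21 KO the pump median is 0.27.

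In DDX21 KO cells the mimic went with the same direction for most members but smaller ratios. Of 49 members 38 had a ratio above 1 (77.6%, against 50% of all 13382 genes), with a median log2 ratio of 0.19 against 0.0002 for all genes. By at least 1.5-fold, 4 members were higher and 0 lower, against a background of 5.96% higher and 6.80% lower, so 8.16% of members stood against 5.96% of genes. The 4 were MAP1LC3B, GABARAPL1, GLA and ATP6V0C, of which MAP1LC3B, at 0.586, lay just above the limit of 0.585. With 53.9 CPM in miR-34a and 32.4 CPM in non-treated DDX21 KO cells, GLA had a log2 ratio of 0.73 (0.62 to 0.85). ATP6V0C, the proteolipid of the proton-conducting ring, had 202 counts in miR-34a and 80 in non-treated DDX21 KO cells and was the only member higher by at least 2-fold (background 1.62%), at 1.04 (0.67 to 1.45), while 0 members were lower by 2-fold (background 1.69%). NPC1, the membrane cholesterol transporter, at 0.58 (0.50 to 0.65), and ATP6V0B, at 0.58 (0.49 to 0.67), lay just under the 1.5-fold limit. NPC1 shares its span with RMC1, so its counts are uncertain.

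Some members that were higher in H1299 had intervals that include 0 in DDX21 KO cells. WIPI1 had a log2 ratio of -0.07 (-0.27 to 0.12), the renin receptor and pump accessory protein ATP6AP2 -0.01 (-0.09 to 0.06), CTSA 0.09 (-0.01 to 0.18), ATP6V1A -0.04 (-0.10 to 0.01) and BECN1, of the autophagy lipid kinase complex, 0.08 (-0.03 to 0.20). ATG9A was again the lowest member, with 24.3 CPM in miR-34a and 34.8 CPM in non-treated DDX21 KO cells and a log2 ratio of -0.52 (-0.66 to -0.38). ULK1 followed at -0.44 (-0.81 to -0.08), on 120 counts in miR-34a and 134 in non-treated DDX21 KO cells. GUSB stood at -0.30 and CTSB at -0.19 (-0.27 to -0.11).

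The 2 miR-34a comparisons share no library, so members can be set side by side. Of the 48 members entering both, 36 were above 0 in both lines and 5 below 0 in both, where 4967 and 4892 of 13015 genes were. GLA, MAP1LC3B and GABARAPL1 were higher by at least 1.5-fold in both lines. The share of all genes called in both was not computed, so their number is not a result about the members. Across the 48 members the ratios had a Pearson r of 0.62 and a Spearman rho of 0.64, against 0.65 and 0.68 over all 13015 genes. These are descriptions across genes, which share their libraries and are not independent replicates. In 40 of the 48 members the ratio was smaller in DDX21 KO than in H1299, where 6731 of 13015 genes were.

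**Figure D4:**
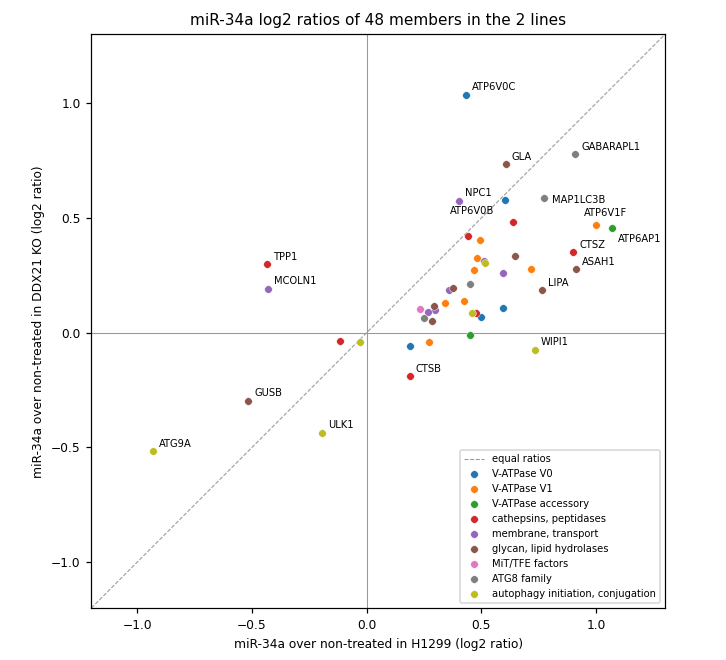
Log2 ratio of miR-34a over non-treated cells in DDX21 KO (vertical) against H1299 (horizontal) for the 48 members entering both, coloured by role, with a dashed line at equal ratios. In 40 members the point lies below the dashed line, and 7 members have opposite signs on the axes, TPP1 and MCOLN1 being positive in DDX21 KO and CTSB, WIPI1, ATP6V0A1, ATP6V1A and ATP6AP2 positive in H1299. In DDX21 KO cells the intervals of WIPI1, ATP6V0A1, ATP6V1A, ATP6AP2 and MCOLN1 include 0, and the sign of ATP6AP2 flips with library totals, DESeq2 size factors and FPKM.

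Subtracting the log2 ratio in H1299 from that in DDX21 KO gave a median of -0.20 over 49 members, against -0.01 over 13964 genes, with 9 members above 0 (18.4%, against 48.4%). By at least 1.5-fold, 3 members had a higher and 3 a lower ratio in DDX21 KO cells (6.12% each), against 5.73% and 5.26% of all genes. These shares are close, so the genes named next are not a result about the members as a set. In either direction 0 members reached 2-fold (background 2.13% and 2.07%). The lower ones were WIPI1, at -0.81 (-1.07 to -0.55), ASAH1, at -0.64 (-0.81 to -0.47), and ATP6AP1, at -0.61 (-0.77 to -0.46). The higher ones were TPP1, at 0.73 (0.38 to 1.09), MCOLN1, at 0.62 (0.21 to 1.03), and ATP6V0C, at 0.60 (0.13 to 1.08). All 8 V1 subunits had differences with intervals below 0, where 25.0% of all genes did, with a median of -0.25 and 0 of them past 1.5-fold. The narrower spread of all ratios in DDX21 KO, given above, bears on these shares too. Genes matched for their ratio in H1299 were not compared. All 4 libraries enter this difference, including non-treated H1299, which was the lowest for most members, so a departure of that single library and a difference between the lines cannot be told apart.

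Without the mimic, the question was how the lines themselves differed, and the answer varied by role. Over 48 members the median log2 ratio of non-treated DDX21 KO to non-treated H1299 was 0.27, against -0.02 for all 13600 genes, and 34 were above 0 (70.8%, against 47.9%). By at least 1.5-fold, 10 were higher and 1 lower, against 9.16% and 9.86% of all genes. This comparison shares the non-treated H1299 library with that of the mimic in H1299, so both medians would move together with it. Peptidases led: 4 of 7 were higher by at least 1.5-fold, with a median of 0.60. CTSH, an aminopeptidase, was the only member higher by 2-fold (background 3.79%), on 118 counts in non-treated DDX21 KO and 65 in non-treated H1299 cells, a log2 ratio of 1.24 (0.82 to 1.73), and 0 were lower by 2-fold (background 2.75%). CTSA was at 0.74 (0.64 to 0.85), CTSZ at 0.65 (0.48 to 0.82) and CTSB at 0.60 (0.52 to 0.68). CTSA shares its span with PLTP, which had 293 counts in non-treated DDX21 KO and 386 in non-treated H1299 cells.

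Of the membrane proteins, LAMP2 (gene 3920, chrX:120426148-120469349) had the largest ratio between the lines without the mimic. Its level was 177 CPM in miR-34a DDX21 KO, 166 in non-treated DDX21 KO, 115 in miR-34a H1299 and 93.7 in non-treated H1299 cells. Both DDX21 KO libraries lay above both H1299 libraries, with log2 ratios of 0.62 (0.56 to 0.68) with the mimic and 0.82 (0.76 to 0.89) without. SCARB2 was at 0.59 (0.51 to 0.66) without the mimic and 0.41 with it. ASAH1 stood at 0.83 (0.70 to 0.97) without the mimic and at 0.19 (0.09 to 0.30) with it, and ATP6V0E1, a small V0 subunit, at 0.75 without and 0.26 with it. The pump was divided: V1 subunits had a median of 0.23 and V0 subunits of -0.22 without the mimic. ATP6V0C was the only member lower by 1.5-fold, with 80 counts in non-treated DDX21 KO and 161 in non-treated H1299 cells and a log2 ratio of -0.59 (-1.01 to -0.21), a call that library totals, DESeq2 size factors or upper-quartile factors would end. MAP1LC3B was below 0 in DDX21 KO cells both with the mimic (-0.45) and without (-0.26).

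With the mimic in both lines, the median of the members lay close to that of all genes. The median log2 ratio of miR-34a DDX21 KO to miR-34a H1299 was 0.07 over 49 members, against -0.007 over 13621 genes, and 27 were above 0 (55.1%, against 49.4%). By at least 1.5-fold, 6 were higher (background 9.85%) and 2 lower (9.86%). CTSH had 140 counts in miR-34a DDX21 KO and 55 in miR-34a H1299 cells, a log2 ratio of 1.32 (0.89 to 1.83). ATG9A (gene 79065, chr2:219219380-219229636) was the second member beyond 2-fold (background 3.99%), at 1.09 (0.92 to 1.28), and 0 were lower by 2-fold (background 2.96%). Its level was 24.3 CPM in miR-34a DDX21 KO, 34.8 in non-treated DDX21 KO, 11.4 in miR-34a H1299 and 21.7 in non-treated H1299 cells, lower with the mimic in each line and higher in DDX21 KO within each treatment. TPP1 was at 0.88 (0.63 to 1.15), MCOLN1 at 0.82 (0.52 to 1.13), LAMP2 at 0.62 and MITF, on 52 counts in miR-34a DDX21 KO and 30 in miR-34a H1299 cells, at 0.76 (0.12 to 1.5). The lower members were GAA, the acid α-glucosidase, at -0.63 (-0.85 to -0.43) and ATP6V0A1 at -0.61 (-0.79 to -0.43).

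**Figure D5:**
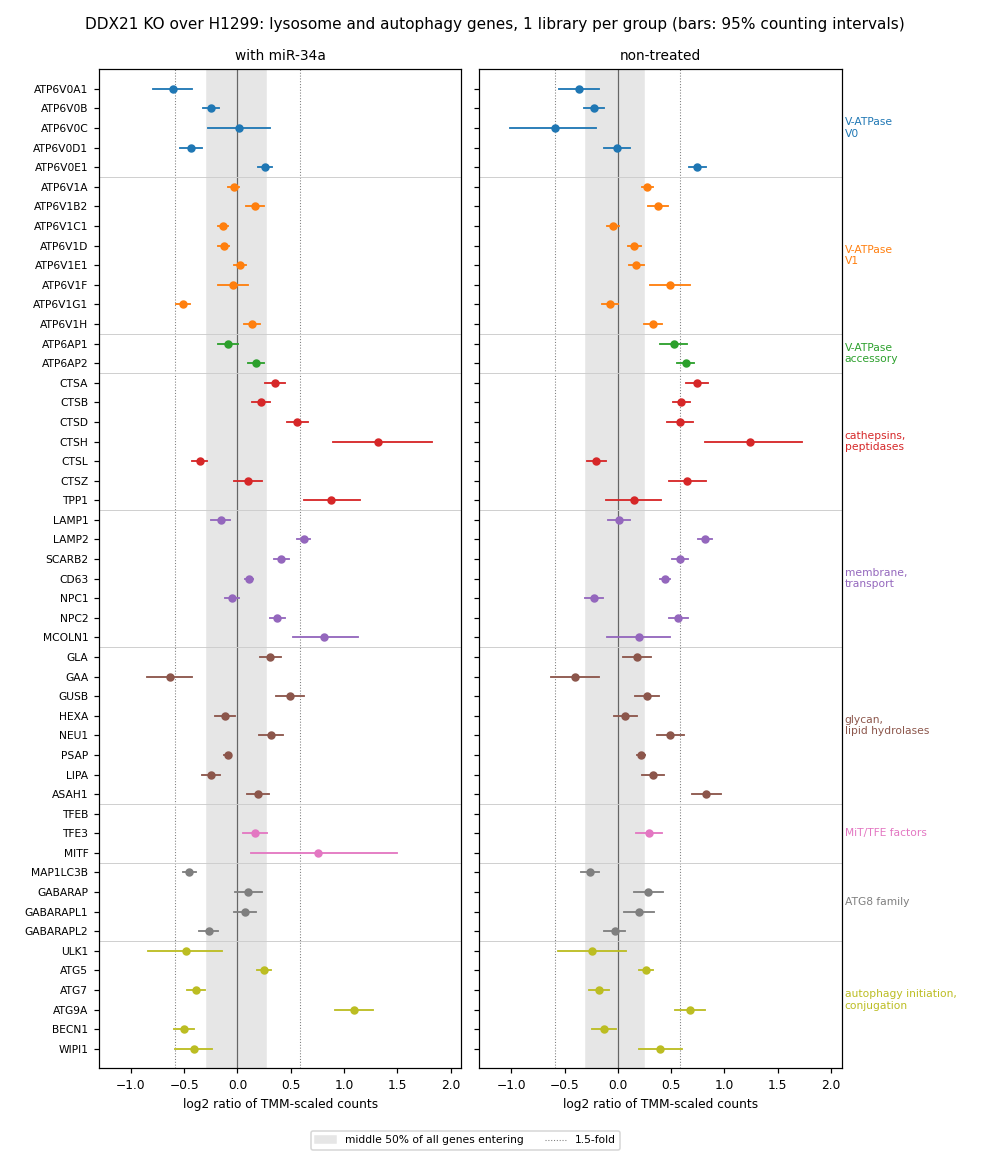
Log2 ratio of DDX21 KO over H1299 for each member (rows, by role) with the mimic (left) and non-treated (right), with 95% counting intervals as bars, 1.5-fold as dotted lines and the middle 50% of all genes in grey. CTSH, at 1.32 with the mimic and 1.24 without, and LAMP2, at 0.62 with it and 0.82 without, lie right of the 1.5-fold line in both panels.

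Of the transcription factors of the CLEAR element, TFE3 alone had enough counts for narrow intervals. It had log2 ratios of 0.10 (-0.01 to 0.22) with the mimic in DDX21 KO and 0.23 (0.11 to 0.35) in H1299 cells. TFEB had 21, 16, 20 and 41 counts in miR-34a DDX21 KO, non-treated DDX21 KO, miR-34a H1299 and non-treated H1299 cells and entered no comparison, and MITF had 52, 43, 30 and 33 in the same 4 groups. Set against the promoter windows above, the 9 members with TCACGTG had a median log2 ratio with the mimic of 0.19 in DDX21 KO and 0.44 in H1299 cells. Members whose window lacked it had medians of 0.20 over 30 and 0.45 over 29 members. In H1299 the 9 lay between -0.43, for MCOLN1, and 0.72, for ATP6V1G1, both of which carry the full palindrome shown above.

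Members with a seed site had a lower median than the others, and most were still above 0. In H1299 the median log2 ratio was 0.24 over 10 members with a site and 0.46 over 38 without, and 4 of 10 against 3 of 38 were below 0. In DDX21 KO cells the medians were 0.12 over 11 and 0.19 over 38, with 5 of 11 and 6 of 38 below 0. The share of members with a site (20.8% of those entering in H1299) was close to the 23.3% of all protein-coding genes with a 3′ UTR, for which the medians were -0.10 with a site and 0.06 without. ATG9A, TPP1, ULK1 and ATG5 were the members with a site and a ratio below 0 in H1299, and of these TPP1 was above 0 in DDX21 KO cells. The H1299 intervals of ULK1, at -0.19 (-0.50 to 0.10), and ATG5, at -0.03 (-0.10 to 0.04), include 0. NEU1, the neuraminidase, has an 8-mer shortly after its stop codon and was at 0.12 in DDX21 KO and 0.29 in H1299 cells. ATP6V1C1, which also has an 8-mer, was at 0.40 in DDX21 KO and 0.49 in H1299 cells. The longest annotated 3′ UTR need not be the one these cells use.

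Estimated counts per transcript were used to look at isoforms, which share most of their reads, so shares are estimates. LAMP2 is spliced at its last exon into variants A, B and C, of which A encodes the form known for chaperone-mediated autophagy. Variant B held 62.7% (61.5 to 64.0) of LAMP2 counts in miR-34a DDX21 KO, 64.5% (63.1 to 65.9) in non-treated DDX21 KO, 59.5% (57.9 to 61.1) in miR-34a H1299 and 61.3% (59.7 to 63.0) in non-treated H1299 cells, with exact Clopper-Pearson 95% intervals. Variant A held nearly all of the rest and variant C at most 2 counts in a library, so the higher LAMP2 in DDX21 KO was spread over both main variants. For ATG9A the transcript NM_024085 had 165 counts in miR-34a DDX21 KO and 276 in non-treated DDX21 KO cells and was listed at 0 in both H1299 libraries, where NM_001077198 held 340 counts with the mimic and 776 without. In DDX21 KO cells NM_001077198 held 575 counts with the mimic and 579 without. These counts are unscaled, from libraries of 32240536 counts with the mimic and 26868358 without, so similar counts there are not similar levels. A count of 0 beside a near-identical transcript can be a failed assignment.

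Other genes of the pathway, in 6 lists of 142 genes that hold none of the members, were set beside them, against the same background at 1.5-fold of 5.96% higher and 6.80% lower in DDX21 KO and 10.6% higher and 12.9% lower in H1299 cells. Among other lysosomal hydrolases, 3 of 31 passed 1.5-fold upward and 2 downward with the mimic in DDX21 KO cells (median 0.20), and 9 of 30 upward and 2 downward in H1299 (median 0.31). CTSO, a cysteine protease, was the highest in H1299, with 9.43 CPM in miR-34a and 2.94 CPM in non-treated cells, a log2 ratio of 1.66 (1.36 to 2.01). SMPD1, acid sphingomyelinase, was the lowest in both lines, with 4.00 CPM in miR-34a DDX21 KO, 10.3 in non-treated DDX21 KO, 2.65 in miR-34a H1299 and 6.33 in non-treated H1299 cells. Its log2 ratios were -1.35 (-1.68 to -1.06) in DDX21 KO and -1.24 (-1.63 to -0.90) in H1299 cells. ARSB, arylsulfatase B, was at -0.81 in DDX21 KO and -0.79 in H1299 cells.

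Other lysosomal membrane proteins had medians of 0.13 in DDX21 KO and 0.03 in H1299 cells, with 2 of 24 higher and 1 lower in each. OSTM1, a subunit of the lysosomal chloride exchanger, was at 0.67 (0.61 to 0.73) in DDX21 KO and was the highest in H1299 cells at 1.13 (1.07 to 1.2). CD68 was the lowest in both lines. It stood at 5.03 CPM in miR-34a and 27.8 CPM in non-treated DDX21 KO cells, a log2 ratio of -2.45 (-2.72 to -2.22). In H1299 it was at 3.44 CPM in miR-34a and 17.1 CPM in non-treated cells, or -2.29 (-2.61 to -2.02). The other pump subunits and assembly factors, 6 of which entered, had medians of -0.07 in DDX21 KO and 0.07 in H1299 cells and 0 genes beyond 1.5-fold in either direction. They include subunits for other tissues and membranes, such as ATP6V0A2 of the Golgi, at -0.30 in DDX21 KO and -0.41 in H1299 cells.

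Among other autophagy machinery, 1 of 30 was higher and 0 lower in DDX21 KO cells, and 3 were higher and 2 lower in H1299, so that 3.33% and 10% were higher and neither share exceeds the background. The ATG8 protein MAP1LC3A led in both, with 252, 134, 283 and 111 counts in miR-34a DDX21 KO, non-treated DDX21 KO, miR-34a H1299 and non-treated H1299 cells, giving log2 ratios of 0.62 (0.32 to 0.94) in DDX21 KO and 1.45 (1.15 to 1.80) in H1299 cells. ATG4B, a protease that processes ATG8 proteins, was the lowest in both lines, at -0.51 (-0.63 to -0.40) in DDX21 KO and -0.76 (-0.89 to -0.64) in H1299 cells, and its 3′ UTR holds an 8-mer. The autophagy receptors split: of 11 genes, 1 was higher and 2 lower in DDX21 KO, and 2 were higher and 2 lower in H1299 cells. SQSTM1, the receptor p62, stood at 1339 CPM in miR-34a DDX21 KO, 485 in non-treated DDX21 KO, 1543 in miR-34a H1299 and 390 in non-treated H1299 cells, or a log2 ratio of 1.47 in DDX21 KO and 1.99 in H1299 cells. CALCOCO2, or NDP52, was at 43.4 CPM in miR-34a DDX21 KO, 81.8 in non-treated DDX21 KO, 64.8 in miR-34a H1299 and 128 in non-treated H1299 cells, with log2 ratios of -0.91 (-1.01 to -0.82) in DDX21 KO and -0.98 (-1.06 to -0.91) in H1299 cells. Of the other pathway genes, IDS, PLA2G15, IGF2R, WIPI2 and SNAP29 also held an 8-mer. Over all pathway genes that are no member, medians in DDX21 KO were 0.060 with any seed site and 0.056 without. In H1299 they were 0.18 with a site and 0.20 without. The CALCOCO2 site is shown because it is an 8-mer in the receptor with the lowest ratio in both lines.
CALCOCO2 (chr17:48863341-48863370, plus strand): ccaagttgtccCACTGCCAttcaaagtcag
NCOA4, the ferritin receptor, was also lower in both lines, at -0.65 in DDX21 KO and -0.60 in H1299 cells. Of 26 genes of mTORC1 and nutrient sensing, TSC1, an inhibitor of mTORC1, was the only one higher by 1.5-fold in DDX21 KO cells, at 0.65 (0.54 to 0.77). It was at 0.74 (0.66 to 0.82) in H1299, where SLC38A9 was the other higher gene. In either line 0 were lower by 1.5-fold, and the lowest were LAMTOR3, at -0.29 in DDX21 KO, and NPRL3, at -0.44 in H1299 cells.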

How the data were processed

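RNA sequencing of 4 libraries, 1 per group, was analysed. Libraries were stranded and depleted of ribosomal RNA, per the labels' protocols. The authors aligned reads with TopHat2 2.0.9 and Bowtie2 2.0.6 to GRCh38, per the submitters' processing notes, and deposited estimated counts as whole numbers per gene and transcript, and FPKM values, per the file headers. Counting software and any strand setting: not given in the sources used here. Deposited p-values and fold changes of the authors' deposited table, per the file headers, were used only for the closing section. A further 32 columns of per-sample values were not used.

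Counts were scaled by TMM factors (edgeR 4.0.16, R 4.3.3) and compared as log2 ratios with a prior count of 2, over genes with at least 50 counts in either library. Each ratio carries a 95% Clopper-Pearson interval (Python 3.11.15), and the difference of 2 ratios an interval from the Poisson variance of the counts. Intervals and floors (3 counts) cover counting error only. A gene was called higher or lower past 1.5-fold, and separately past 2-fold, where the interval excluded no change. With 1 library a group, no difference has a replicate check and no test was run. The calculation was tested on simulated data.

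The members and lists were chosen with earlier results of these data known. Named genes are the 50 members, DDX21 and, of each other list, those with the 2 highest and 2 lowest ratios in each miR-34a comparison. Seed matches were searched in GENCODE 29 and promoters in the RefSeq table. Alternatives covered the scaling (DESeq2 1.42.0 size factors among them), count minimum, prior count, FPKM and the transcript table.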

Additional observations from a re-analysis of the deposited data

Results flagged for a closer look

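For 2 members the miR-34a ratio pointed in opposite directions in the 2 lines, with counting intervals that exclude no change in each. The difference was not tested. CTSB had a log2 ratio of -0.19 in DDX21 KO and 0.19 in H1299 cells, on levels of 82.6 CPM in miR-34a DDX21 KO, 94.2 in non-treated DDX21 KO, 70.9 in miR-34a H1299 and 62.2 in non-treated H1299 cells. TPP1 had 0.30 in DDX21 KO and -0.43 in H1299 cells, on 10.7 CPM in miR-34a DDX21 KO, 8.73 in non-treated DDX21 KO, 5.81 in miR-34a H1299 and 7.87 in non-treated H1299 cells.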

How the results depend on the processing

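Across the alternatives the median log2 ratio of the members stayed between 0.15 and 0.21 for the mimic in DDX21 KO, 0.42 and 0.47 for the mimic in H1299, 0.24 and 0.29 for non-treated DDX21 KO over H1299, 0.04 and 0.10 for DDX21 KO over H1299 with the mimic, and -0.21 and -0.16 for the difference between the lines. No median and no member called at 1.5-fold changed sign; 19 recomputed values of 6 uncalled members (ATP6AP2, MITF, GAA, ATG5, ATP6V0D1, CTSD), each within 0.052 of 0 in the reported value, did. Of the 243 member ratios, 4 moved beyond their counting interval on FPKM with a pseudocount of 0.1 and 8 with a pseudocount of 1. With the mimic in H1299, 12 members were higher by 1.5-fold with protein-coding genes only in the scaling, in place of 15. On FPKM with a pseudocount of 1 there were 13. In DDX21 KO cells there were 3 with upper-quartile factors and 6 with library totals or DESeq2 size factors, in place of 4. Non-treated DDX21 KO over H1299 had 8 on FPKM with a pseudocount of 1 and 12 with library totals, in place of 10. Small counts of calls moved as well. For the mimic in H1299, 2 members passed 2-fold upward with library totals, DESeq2 size factors, upper-quartile factors or a prior count of 0.5, in place of 1, and 2 were lower by 1.5-fold with a count minimum of 10 or none, in place of 1. In non-treated DDX21 KO over H1299, the 1 lower member was lost (0) with library totals, DESeq2 size factors, upper-quartile factors, a count minimum of 200 or FPKM with a pseudocount of 1, and became 2 with a minimum of 10 or none. The 1 member past 2-fold upward there, CTSH, was lost (0) with a minimum of 200 or FPKM with a pseudocount of 1. With the mimic, DDX21 KO over H1299 had 1 member past 2-fold upward at a minimum of 200, where CTSH does not enter, in place of 2, and 1 lower by 1.5-fold with library totals, in place of 2. On FPKM with a pseudocount of 1 there were 0 in both cases, 0 past 2-fold for the mimic in DDX21 KO in place of 1, and for the difference between the lines 0 higher in place of 3 and 1 lower in place of 3. Such FPKM calls go by fold alone. Moving the call from 2-fold to 1.5-fold raised the higher members to 4 and 15 with the mimic in DDX21 KO and H1299, and to 6 and 10 for DDX21 KO over H1299 with and without the mimic, and the lower ones to 1 with the mimic in H1299 and to 2 and 1 for DDX21 KO over H1299 with and without it. No paired analysis was possible because the groups of each comparison share fewer than 2 replicate numbers. An additive fit of line and treatment over the 4 libraries, with 1 residual degree of freedom, was not run. Members with few counts (TFEB, MITF, CTSH, ATP6V0C) have the widest intervals.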

Other observations

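The authors' deposited table lists 908 genes, a small selection beside the 46427 rows of the gene table. Of the 50 members 0 were listed, and of the 142 other pathway genes 2 were, CD68 and SQSTM1. With so few genes listed, absence from the list is not a result about the members. The authors' deposited table of ontology terms gave lysosome an adjusted p-value of 0.960 and autophagosome 0.522.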
